A study of Mus musculus with 7 samples.

Results

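The genes described here were 4 enzymes of ketone body synthesis and use, Acat1, Bdh1, Bdh2 and Oxct1, in the duodenum of mice with an intestinal epithelial knockout of Ppara and of their controls. They were chosen by symbol alone, and all 4 were among the 14795 genes of the expression table. PPARα is a nuclear receptor that turns on genes of fatty acid oxidation and, in the fasted liver, of ketone body formation. RNA was sequenced from 7 duodena, 3 from Ppara lox/lox mice and 4 from Ppara I-KO mice, labelled as strain C57BL/6 and, in the study's methods, predominantly of the C57BL/6J background.

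Both groups carried floxed Ppara alleles. The I-KO mice also carried a Villin-Cre transgene, which drives the recombinase in the intestinal epithelium and not in muscle, immune and stromal cells of the gut wall. The controls were littermates without Cre, and no group with Cre alone was analysed here. According to the study's methods the mice were males on a high-fat diet (HFD), whereas the sample labels give no diet and no age. All mice went without food for 6 h, were refed in the evening and were killed at midnight, so that fed and fasted states were not compared. The tissue was whole duodenum, in which fewer cells of a type and less RNA per cell cannot be told apart.

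Ketone bodies are small, water-soluble fuels made from acetyl-CoA. ACAT1, a mitochondrial thiolase, joins a pair of acetyl-CoA molecules into acetoacetyl-CoA, and it runs in reverse when ketone bodies are burned and in isoleucine breakdown. BDH1, a dehydrogenase of the inner mitochondrial membrane, converts acetoacetate to β-hydroxybutyrate and back, and the cytosolic BDH2 is a related short-chain dehydrogenase also linked to siderophore formation. OXCT1 (SCOT) moves CoA from succinyl-CoA to acetoacetate, the committed step of ketone body use, and is scarce in hepatocytes, which export ketone bodies.

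In short, Acat1, Bdh1 and Oxct1 were abundant and Bdh2 was low in both genotypes, and none of the 4 genes differed between Ppara I-KO and Ppara lox/lox beyond the spread between mice. Their mean differences ran from 0.05 to 0.19 on the log2 scale, each with a confidence interval that included 0. The precision differed widely between them. Acat1 varied by 1.09-fold over the 7 libraries and Bdh2 by 2.23-fold.

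In the GRCm38 (mm10) assembly Acat1 lies on chromosome 9 from 53580522 to 53610382, on the minus strand. The others lie on the plus strand, Bdh1 on chromosome 16 from 31422280 to 31458901, Bdh2 on chromosome 3 from 135281221 to 135304426 and Oxct1 on chromosome 15 from 4026383 to 4155344. Ppara is on chromosome 15 too, from 85734983 to 85802819. Bdh1 and Oxct1 overlap antisense or non-coding genes on the opposite strand. BC037032, within Oxct1, was listed at 0.17 to 0.43 CPM (normalized counts per library size, as scaled by the authors), against 223 CPM or more for Oxct1. The libraries were made with a stranded kit, but the strand setting of the counting is not given in the sources used here.

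PPARα binds DNA together with RXR at a direct repeat of a pair of AGGTCA half-sites 1 base apart, AGGTCANAGGTCA. RefSeq sequence of the 250 bases before annotated starts was matched for 3 of the 4 genes, Bdh1 with 2 starts, the second of them inside the gene as GENCODE has it, and Bdh2 and Oxct1 with 1 each. The windows of Bdh1 and Oxct1, the abundant genes with a window, are shown 5′ to 3′ on the plus strand of GRCm38, each cut before the first base of a GENCODE exon of that gene within it, with capitals marking the stretch closest to the repeat on either strand.
Bdh1, chr16:31422047-31422279: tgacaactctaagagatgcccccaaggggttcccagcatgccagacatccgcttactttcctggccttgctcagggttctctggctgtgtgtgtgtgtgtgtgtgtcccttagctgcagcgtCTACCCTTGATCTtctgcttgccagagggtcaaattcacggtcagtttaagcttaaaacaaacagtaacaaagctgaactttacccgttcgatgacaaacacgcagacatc
Bdh1, chr16:31428503-31428747: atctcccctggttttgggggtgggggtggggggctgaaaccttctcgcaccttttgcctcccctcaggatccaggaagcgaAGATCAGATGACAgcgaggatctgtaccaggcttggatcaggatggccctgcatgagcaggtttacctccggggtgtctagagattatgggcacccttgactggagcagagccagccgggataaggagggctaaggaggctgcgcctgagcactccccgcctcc
Oxct1, chr15:4026178-4026382: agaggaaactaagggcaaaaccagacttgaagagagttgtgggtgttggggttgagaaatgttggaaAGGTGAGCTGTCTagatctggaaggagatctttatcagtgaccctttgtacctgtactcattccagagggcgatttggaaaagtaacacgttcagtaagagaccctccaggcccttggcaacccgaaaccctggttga
The best stretch shared 8 of the 12 defined letters in the first Bdh1 window and in the Oxct1 window, a match equalled or bettered in 74.5% of all 32851 promoter windows. The second Bdh1 window reached 9 letters, equalled or bettered in 21.3% of windows. The Bdh2 window also reached 8 letters. None of these windows held an exact half-site on either strand, whereas 14.0% of all windows did. These are matches of letters in short windows and say nothing of binding.

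Each library held between 20740121 and 25889488 reads on genes, as estimated from the steps between low values, and 1 read was worth 0.0393 to 0.0530 CPM. Ppara itself was 53.4, 49.3 and 63.2 CPM in lox/lox replicates 1 to 3 and 33.1, 40.6, 47.5 and 69.9 CPM in I-KO replicates 1 to 4. The library labelled I-KO replicate 4 was thus above every control, while the other three I-KO libraries were below every control. The difference of Ppara was −0.25 on the log2 scale (SE 0.22, limma adjusted p = 0.954), and without I-KO replicate 4 it was −0.45 (adjusted p = 0.698). Each gene has 1 value per library, so reads of the floxed part could not be seen apart from the rest of Ppara. Markers of enterocytes summed to between 42075 and 50828 CPM in lox/lox and between 44170 and 56687 CPM in I-KO, and those of hepatocytes to at most 4.63 CPM. Markers of pancreatic acinar cells reached 369.9 CPM in I-KO replicate 1 and 79.0 CPM in lox/lox replicate 2, against 17.5 to 32.8 CPM in the other libraries, with several (Pnlip, Cela3b, Ctrb1 and others) at 0 in at least 1 library.

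Acat1, the thiolase at the entry of the pathway, was the steadiest of the 4 genes. It was 164, 161 and 171 CPM in lox/lox replicates 1 to 3 and 167, 176, 171 and 170 CPM in I-KO replicates 1 to 4. The groups overlapped, and only I-KO replicate 2 was above the highest control. The means were 165 ± 5.34 CPM (SD, n = 3) and 171 ± 3.49 CPM (SD, n = 4). The I-KO minus lox/lox difference of log2(CPM + 1) was 0.05 (SE 0.07, 95% confidence interval −0.12 to 0.21), with a limma adjusted p of 0.971 and an exact two-sided permutation p of 0.200. On the fold scale the interval ran from 0.922 to 1.16. Its spread within groups was at the 0.702 percentile of all 13399 genes tested.

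Bdh1, the mitochondrial dehydrogenase, was 155, 161 and 151 CPM in the lox/lox libraries and 155, 177, 169 and 177 CPM in the I-KO libraries. I-KO replicates 2, 3 and 4 were above every control and I-KO replicate 1 lay among them, so the groups overlapped. The means were 156 ± 5.07 CPM (SD, n = 3) and 169.5 ± 10.1 CPM (SD, n = 4). The log2 difference was 0.12 (SE 0.08, 95% confidence interval −0.07 to 0.30), limma adjusted p = 0.954, exact permutation p = 0.143. The highest control, lox/lox replicate 2 (161 CPM), had more acinar RNA (79.0 CPM) than any library but I-KO replicate 1. The lowest Bdh1 of all, 151 CPM, was in lox/lox replicate 3, with acinar markers at only 21.6 CPM. However, I-KO replicate 1, the low one of its group, is the library with the most acinar RNA. Without it the difference was 0.16 (unadjusted p = 0.0713, limma adjusted p = 0.980), and the part of acinar RNA in this was not tested.

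Oxct1, the transferase of ketone body use, had the highest level and the widest spread of the 3 abundant genes. It was 327, 291 and 223 CPM in lox/lox replicates 1 to 3 and 292, 381, 361 and 251 CPM in I-KO replicates 1 to 4. I-KO replicates 2 and 3 were above every control, while I-KO replicates 1 and 4 fell within the control range. The means were 281 ± 52.7 CPM (SD, n = 3) and 321 ± 60.5 CPM (SD, n = 4). The log2 difference was 0.19 (SE 0.17, 95% confidence interval −0.20 to 0.59), limma adjusted p = 0.954, exact permutation p = 0.400. The size of the difference rested on single libraries, being 0.04 when lox/lox replicate 3, the lowest control, was left out and 0.31 when lox/lox replicate 1, the highest control, was. Omitting I-KO replicate 2, its highest library, gave 0.10, and omitting I-KO replicate 4, its lowest in that group, gave 0.30. With 5683 to 9710 reads per library, counting error was at most 1.33% of a value, against a coefficient of variation of 18.8% in each group.

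Bdh2, the cytosolic dehydrogenase, was near the bottom of the tested range, with 46 to 92 reads per library. It was 2.47, 2.06 and 3.61 CPM in the lox/lox libraries and 3.78, 1.81, 4.03 and 3.39 CPM in the I-KO libraries. I-KO replicates 1 and 3 were above every control and I-KO replicate 2 below every control. The means were 2.71 ± 0.803 CPM (SD, n = 3) and 3.25 ± 0.997 CPM (SD, n = 4). The log2 difference was 0.18 (SE 0.21, 95% confidence interval −0.30 to 0.67), limma adjusted p = 0.962, exact permutation p = 0.514. Counting alone gives a coefficient of variation of 14.7% at 46 reads, against 29.6% seen in lox/lox and 30.7% in I-KO. The 95% Poisson intervals of I-KO replicate 2 (1.32 to 2.41 CPM) and I-KO replicate 3 (3.17 to 5.04 CPM) did not meet. Intervals of this kind cover counting error only, and no molecular identifiers are described for these reads. Least Bdh2 was in lox/lox replicate 2 and I-KO replicate 2, which also had the lowest sums of enterocyte markers, 42075 and 44170 CPM. However, lox/lox replicate 1, with the highest sum of the controls (50828 CPM), came next lowest in Bdh2 at 2.47 CPM. The part of enterocyte RNA in the Bdh2 values was not tested. The difference was 0.05 when lox/lox replicate 2 was left out and 0.37 when I-KO replicate 2 was (unadjusted p = 0.0433, limma adjusted p = 0.868). Leaving out lox/lox replicate 3 gave 0.35, I-KO replicate 1 gave 0.11 and I-KO replicate 3 gave 0.09.

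**Figure D1:**
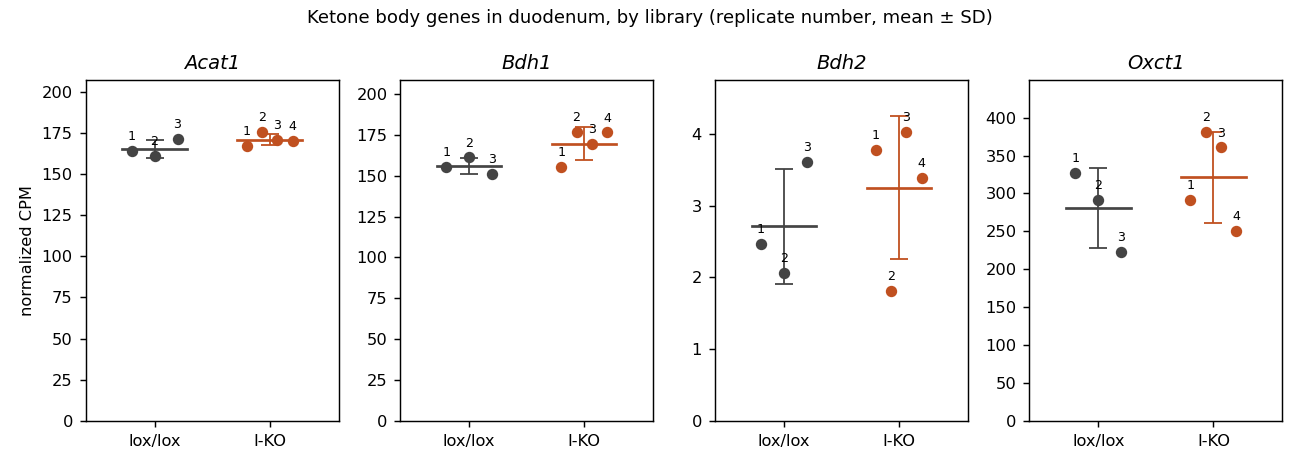
Normalized CPM (vertical axes from 0, one scale per gene) of Acat1, Bdh1, Bdh2 and Oxct1 in the 3 lox/lox and 4 I-KO libraries, with replicate numbers beside the points, a line at the group mean and bars of 1 SD. The groups overlap for every gene, and Acat1 is the tightest, from 161 to 176 CPM.

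**Figure D2:**
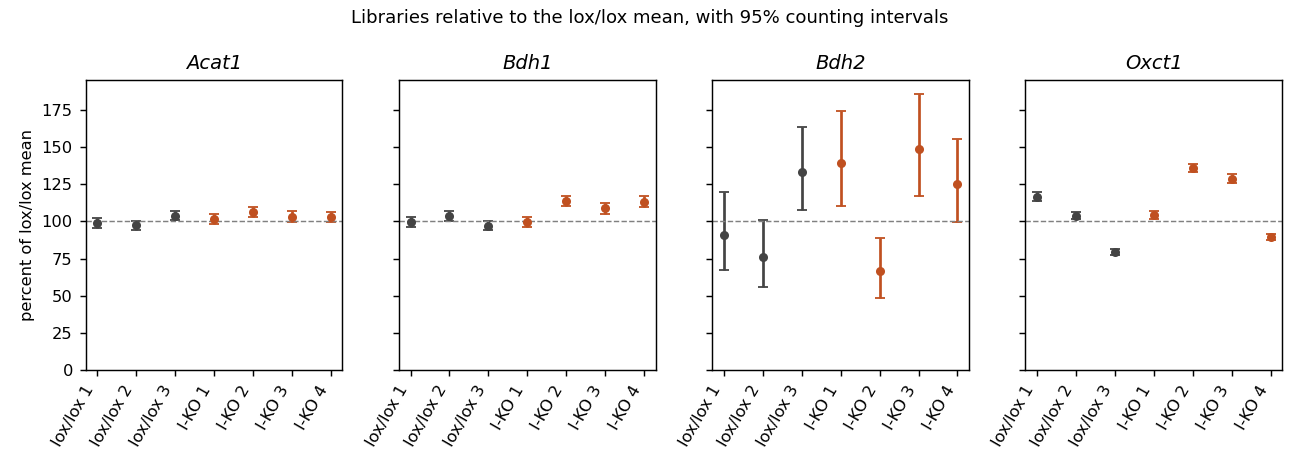
The same values as a percent of the lox/lox mean of each gene, one point per library, with bars for the 95% Poisson interval of its reads. The Oxct1 libraries spread from 79.6% to 136% with bars much shorter than that spread, while the Bdh2 bars are wide.

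In limma 0 of the 4 genes had an adjusted p under 0.05, where 0.0299% of the 13399 genes tested did (0.0224% higher and 0.00746% lower in I-KO). At an unadjusted p under 0.05, 0 of the 4 genes passed and 4.74% of all genes did (2.32% higher and 2.42% lower). Without overlap between the groups were 0 of the 4 genes and 6.19% of all genes. All 4 differences were above 0, as were 50.6% of all differences. Their median was 0.15, against 0.00 for all genes, and the median size of a difference over all genes was 0.08. A median interval over all genes reached 0.24 to either side. The interval of Acat1 and that of Bdh1 were thus narrower than usual, and those of Bdh2 and Oxct1 wider, with spreads at the 96.0 and 90.9 percentiles.

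I-KO replicate 4 was the I-KO library with Ppara above every control. Without it the log2 differences were 0.05 for Acat1, 0.10 for Bdh1, 0.16 for Bdh2 and 0.30 for Oxct1. Their limma adjusted p were 0.883, 0.799, 0.878 and 0.734. Without both acinar-rich libraries (a setting added with the data in view) the values were 0.04 for Acat1, 0.18 for Bdh1, −0.015 for Bdh2 and 0.27 for Oxct1. The sign of Bdh2 thus changed.

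**Figure D3:**
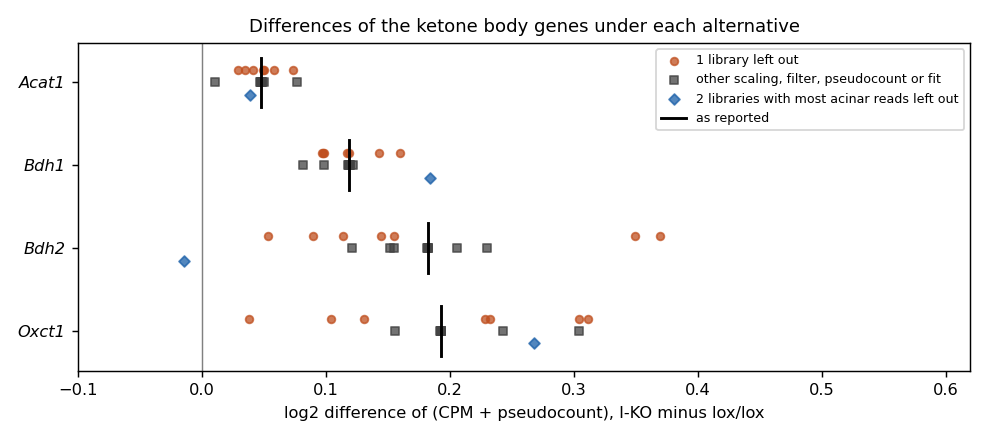
I-KO minus lox/lox difference of log2(CPM + pseudocount) for each gene as reported (black line), with 1 library left out (circles), under other scalings, filters, pseudocounts or fits (squares) and without the 2 libraries richest in acinar reads (diamonds). Acat1 stays between 0.01 and 0.08, whereas Oxct1 runs from 0.04 to 0.31 and Bdh2 from −0.015 to 0.37.

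The order of the genes by level per length was the same in both genotypes. Divided by the length of merged exons, Oxct1 was at 75.8 ± 14.2 CPM per kb in lox/lox (SD, n = 3), followed by Acat1 at 44.0 ± 1.42, Bdh1 at 40.1 ± 1.30 and Bdh2 at 0.638 ± 0.189. In I-KO the levels were 86.8 ± 16.3, 45.5 ± 0.928, 43.6 ± 2.60 and 0.765 ± 0.235 CPM per kb (SD, n = 4). Acat1 and Bdh1 were the only close neighbours. Their ratio per kb was between 0.997 and 1.17 in single libraries, and in I-KO their ranges overlapped. By CPM, Oxct1 stood at the 95.7 percentile of the genes tested, Acat1 at the 91.7, Bdh1 at the 91.0 and Bdh2 at the 11.9. The transferase of ketone body use was thus above the thiolase Acat1 per kb in every library.

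The balance of the genes within a library was also compared, over 6 pairs. The log2 ratio of Acat1 to Oxct1 was −0.75 ± 0.32 in lox/lox and −0.89 ± 0.26 in I-KO (SD, n = 3 and 4), a difference of −0.15 (exact permutation p = 0.543). That of Bdh1 to Oxct1 differed by −0.07 (exact permutation p = 0.686) and that of Acat1 to Bdh1 by −0.07 (exact permutation p = 0.286). None of the 6 ratios passed the test between genotypes, with p-values adjusted over the pairs from 0.960 to 1.0. The smallest p that 3 against 4 libraries allow is 0.0286.

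Across the 7 libraries the correlations between the 4 genes were weak to moderate and of either sign. Pearson's r of log2(CPM + 1) was 0.49 between Acat1 and Bdh1, 0.44 between Bdh1 and Oxct1 and −0.41 between Bdh2 and Oxct1. The other pairs were between −0.25 and 0.15. These are descriptions over 7 libraries of both genotypes. Within a library all genes share its mix of cells and its scaling, and the mix differed between libraries, as the acinar markers show. With 13399 candidates, the tested gene most like Acat1 was Nmur1 (r = 0.98), then Naif1 and Ift52, and Bdh1 was most like Plcb3 (r = 0.98), then Aldoc and Lgr5. For Bdh2 they were Bst1 (r = 0.99), Rnf167 and Herpud2, and for Oxct1 Mad2l2 (r = 0.99), Gata4 and Sertad3. Between 8 genes (for Acat1) and 63 genes (for Bdh2) had an r above 0.9.

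Genes around these 4 enzymes were read from 8 lists of 44 genes, of which 39 were tested. None passed the adjusted threshold (smallest limma adjusted p = 0.566), and 1 was higher and 2 were lower at an unadjusted p under 0.05, where 2.32% of all genes were higher and 2.42% lower. Of the differences, 21 were above 0 and 18 below. Their median was 0.02. By list, the further genes of acetoacetate use and succinyl-CoA had a median of −0.06 (5 genes), transport −0.05 (8 genes), cytosolic HMG-CoA genes 0.01 (2 genes) and the regulators −0.07 (4 genes). Leucine breakdown, which feeds acetoacetate, had a median of 0.10 with 8 of 10 genes above 0, and the isoleucine steps before ACAT1 had 0.15 with 3 of 3. Over all genes 50.6% were above 0.

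The partners of OXCT1 showed small differences. Sucla2, Suclg1 and Suclg2, subunits of the succinyl-CoA ligases, differed by 0.01, −0.06 and −0.07, and Aacs, the cytosolic enzyme that charges acetoacetate for lipid synthesis, by −0.11 (limma adjusted p at least 0.955 for each). The testis-type transferase Oxct2a was low, averaging 1.62 CPM in controls against 1.83 CPM in I-KO. Slc16a1 (MCT1), a monocarboxylate carrier of the gut epithelium, averaged 131 and 125 CPM, and its partner Bsg 679.6 and 727 CPM. Other genes of the transport list stood at similar levels, Slc16a3 at 102 and 120 CPM and Slc16a6 at 171 and 159 CPM. Among receptors, Ffar3 averaged 1.72 and 1.81 CPM, and Hcar2 was not analysed here.

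The other thiolases, relatives of Acat1 in fatty acid oxidation and sterol synthesis, were a further list. Their median was −0.12 (6 genes), and 2 of them had groups that did not overlap, where 3.28% of all genes were lower in I-KO without overlap. Hadhb, the thiolase subunit of the mitochondrial trifunctional protein of fatty acid oxidation, was 247, 252 and 279 CPM in lox/lox and 191, 207, 202 and 197 CPM in I-KO, a log2 difference of −0.38 (SE 0.08, 95% confidence interval −0.56 to −0.19). It did not pass over all genes (limma adjusted p = 0.566, exact permutation p = 0.0286). Groups without overlap by themselves bring the permutation p to or near its smallest value. Here and for Acaa1b it is thus no second test. Acaa1b, a peroxisomal thiolase, was 41.5, 47.7 and 83.3 CPM in lox/lox and 28.9, 23.9, 24.7 and 32.0 CPM in I-KO, a log2 difference of −0.99 (SE 0.22, limma adjusted p = 0.581, exact permutation p = 0.0286). It has a near-identical copy, Acaa1a, at 154 and 156 CPM on average, so the split of reads between both is uncertain.

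The interval of Acat1 did not meet that of Hadhb, the first reaching down to −0.12 and the second up to −0.19, though the difference between them was not tested. The CPM of Acat1 over that of Hadhb was 0.615 to 0.664 in the lox/lox libraries and 0.844 to 0.875 in the I-KO libraries, a ratio chosen after its values were seen. Acat1 over Acaa1b was 2.06 to 3.95 and 5.31 to 7.36. In the branched-chain lists, Bckdha, a subunit of the dehydrogenase that commits leucine and isoleucine to breakdown, was 22.9, 23.9 and 24.1 CPM in lox/lox and 28.9, 26.0, 27.5 and 32.5 CPM in I-KO. Its log2 difference was 0.27 (SE 0.09, limma adjusted p = 0.954, exact permutation p = 0.0571), without overlap, as in 2.91% of all genes on the higher side. The permutation p of Bckdha likewise follows from the lack of overlap. Other subunits of this dehydrogenase went either way on the log2 scale, Bckdhb by −0.13, Dld by −0.11 and Dbt by 0.14. For each of these the groups overlapped.

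**Figure D4:**
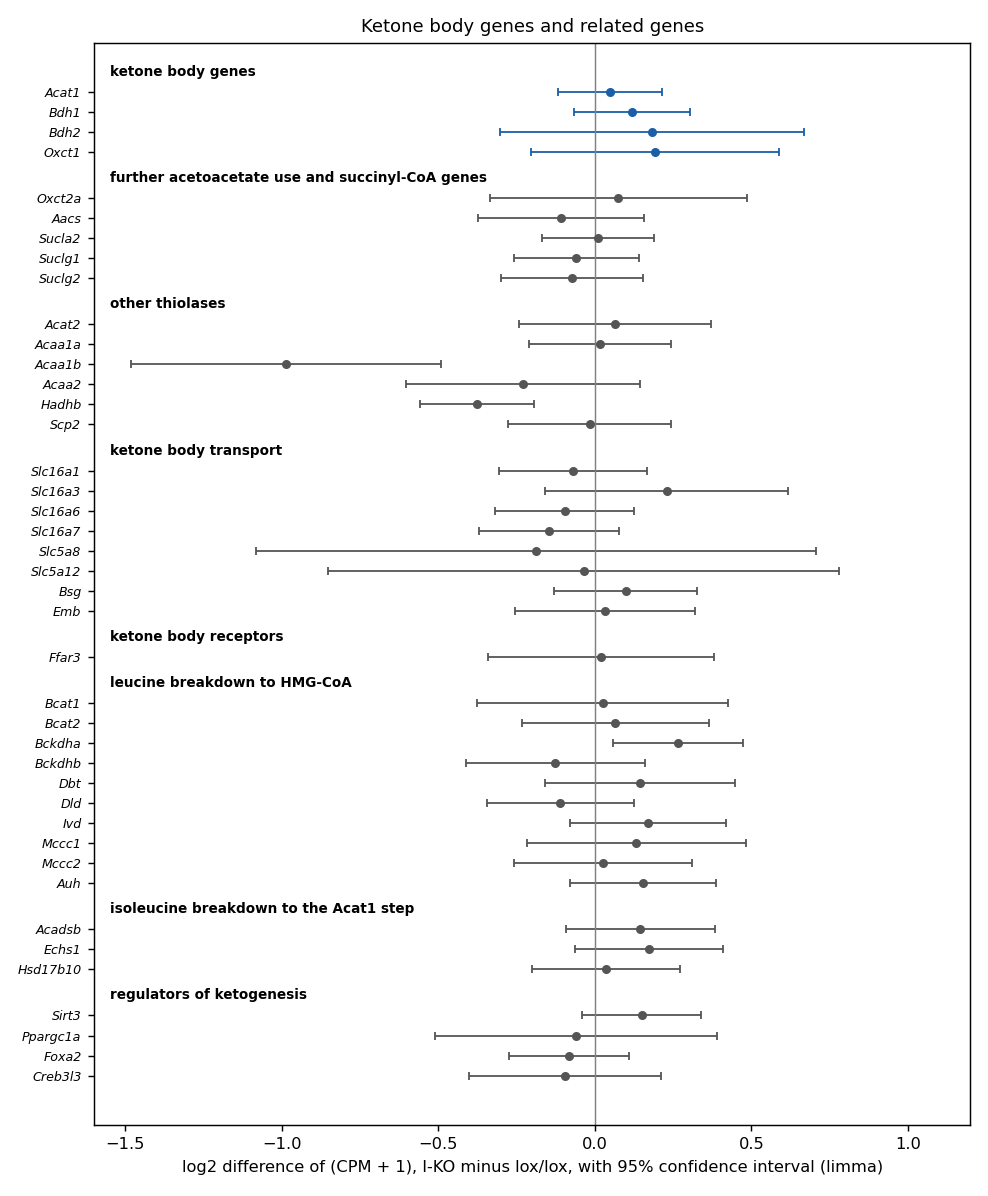
I-KO minus lox/lox difference of log2(CPM + 1) with 95% confidence intervals from limma for the 4 ketone body genes (blue) and 37 related genes in 7 lists (grey). The intervals of the 4 genes include 0, and those of 3 related genes, Acaa1b, Hadhb and Bckdha, do not.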

How the data were processed

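The authors sequenced duodenal RNA (TRIzol, TruSeq stranded mRNA, 100 base single reads) and deposited 1 table of signal values, CPM scaled to an adjusted library size and given to 2 decimals. The submitters' processing notes name FastQC 0.11.2, TopHat2 2.0.13, Picard 1.80, HTSeq 0.6.1, edgeR and the mm10 build. Low values lie on multiples of 1 read within the rounding of 0.005, and depth was estimated from these steps. Count tests were left out because the values are normalized and are not counts. In 4 libraries under 95% of low values lay within 0.1 of a step, though all lay within the rounding. One line without a gene name was dropped.

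Log2(value + 1) of the 13399 genes above 1 CPM in at least 3 libraries entered a limma fit (version 3.58.1, R 4.3.3) on genotype alone, with two-sided p-values and Benjamini-Hochberg adjustment over all genes (threshold 0.05). The fit was tested on simulated data. Fold changes of low genes, such as Bdh2, are understated on this scale. Single genes were also compared by exact permutation over 35 splits. The labels call the libraries biological replicates and give no cage or litter.

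Named were the 4 genes, Ppara, list genes at an unadjusted p under 0.05 or without overlap, and the 3 genes most correlated with each of the 4. Other list genes in the text, and ratios to them, were picked with values in view. The genes and lists were chosen with earlier results of these data known. Further genes of ketone body synthesis are not reported here. Exon lengths came from GENCODE M21, promoters from RefSeq (GRCm38.p6). Alternatives were pseudocounts of 0.5 and 0.1, no filter, other scalings, the replicate number as a block, an intensity trend, sample quality weights and each library left out. Python 3.11.15, pandas 2.3.3, scipy 1.17.1 and matplotlib 3.10.9 were used.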

Additional observations from a re-analysis of the deposited data

How the results depend on the processing

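Over 17 alternatives 0 of the 4 genes passed the adjusted threshold, with adjusted p between 0.680 and 1.0, and Acat1, Bdh1 and Oxct1 kept a difference above 0. Bdh2 was −0.015 on the log2 scale without the 2 libraries richest in acinar reads. These were lox/lox replicate 2, the control with the least Bdh2 (2.06 CPM), and I-KO replicate 1, above every control (3.78 CPM). The part of acinar RNA in this was not tested. With 1 library left out at a time, Acat1 ran from 0.03 to 0.07, Bdh1 from 0.10 to 0.16, Bdh2 from 0.05 to 0.37 and Oxct1 from 0.04 to 0.31. Acaa1b ran from −1.18 to −0.69, Hadhb from −0.41 to −0.32, Bckdha from 0.21 to 0.31 and Ppara from −0.45 to −0.10. The number of genes called over the whole table was 4, between 3 and 5 with 1 library left out, 9 with an intensity trend and robust fit (chosen after the data were seen) and 12 with sample quality weights. None of the 4 genes was among those called.

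Deviations of same-numbered libraries correlated at −0.01, 0.18 and −0.01, within the range of differently numbered ones, −0.35 to 0.28. The replicate numbers thus showed no pairing of the samples, though so few values cannot exclude it. With the replicate number as a block, in which I-KO replicate 4 stands alone and adds nothing, the differences were 0.05 for Acat1, 0.10 for Bdh1, 0.16 for Bdh2 and 0.30 for Oxct1 (limma adjusted p from 0.680 to 0.874), and 3 genes were called.

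With 3 and 4 libraries, the 95% interval of Oxct1 spans a log2 difference of −0.20 to 0.59. Neither a small decrease nor a larger increase is thus excluded at that level. Bdh2 is limited by both its 46 to 92 reads and the spread between libraries.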
